A study of Glycine max with 24 samples.

Results

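Roots and leaves of the low-P-sensitive soybean accession YH were compared in low P. All 3 arrays of YH roots in low P were set against all 3 arrays of YH leaves in low P, so the comparison rests on 6 of the 24 arrays of the study and on all 75990 probe sets. YH is Yunhefengwodou, and CD (Chundou) is the low-P-tolerant accession. According to the paper, seedlings germinated in a mix of nutrient soil and vermiculite and were then moved to half-strength Hoagland solution. Roots and leaves were harvested after 10 days in this solution with 0.005 mmol/L P (low P) or 0.5 mmol/L P (normal P). Each of the 8 combinations of accession, tissue and P level had 3 biological replicates, with 1 Affymetrix Soybean Gene 1.1 ST array each. YH in normal P and CD in low P (6 arrays each) are used below only to show where the difference between YH roots and leaves depended on the P level or the accession. Each accession is a single genotype, so what differs between YH and CD cannot be assigned to their tolerance of low P. Whole roots and whole leaves are mixtures of cell types, in which fewer cells of a type and less RNA per cell cannot be told apart.

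Roots take up water and mineral nutrients and load them into the xylem, whereas leaves fix carbon and export sugar through the phloem. Legume roots also make isoflavonoids, phenolic compounds that act in defence and as signals to rhizobia. Under P shortage plants are known to raise phosphate transport into roots, release organic acids and acid phosphatases, and move phosphate between organs. Most of the proteins that do this belong to families whose members divide their work between organs.

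Of the 75990 probe sets, 7403 (9.74%) were higher in roots and 5288 (6.96%) were higher in leaves. Calls required both an adjusted p below 0.05 in limma and at least a 2-fold difference. Levels are log2 intensities, and a difference of 1 on this scale is a 2-fold change. The median fold of the called probe sets was 3 for those higher in roots and 3.94 for those higher in leaves. Over 16-fold differences numbered 402 in favour of roots and 604 in favour of leaves, and over 64-fold differences numbered 65 and 82. In 7341 of the probe sets higher in roots all 3 root arrays lay above all 3 leaf arrays, and in 5247 of those higher in leaves they lay below. Over all probe sets, called or not, the root arrays lay above the leaf arrays in 21.5% and below in 18.3%. Replicates agreed less in leaves, where the median SD of a probe set was 0.265 against 0.182 in roots, and arrays of the same tissue correlated with r between 0.935 and 0.969 in leaves and between 0.970 and 0.989 in roots. Arrays of different tissue correlated with r between 0.769 and 0.825. The lower quartile of log2 intensity lay between 1.56 and 1.66 on the 6 arrays. No call of detection was used here, so a mean under that quartile leaves the size of a fold uncertain, which touched 740 of the probe sets higher in roots and 803 of those higher in leaves.

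**Figure D1:**
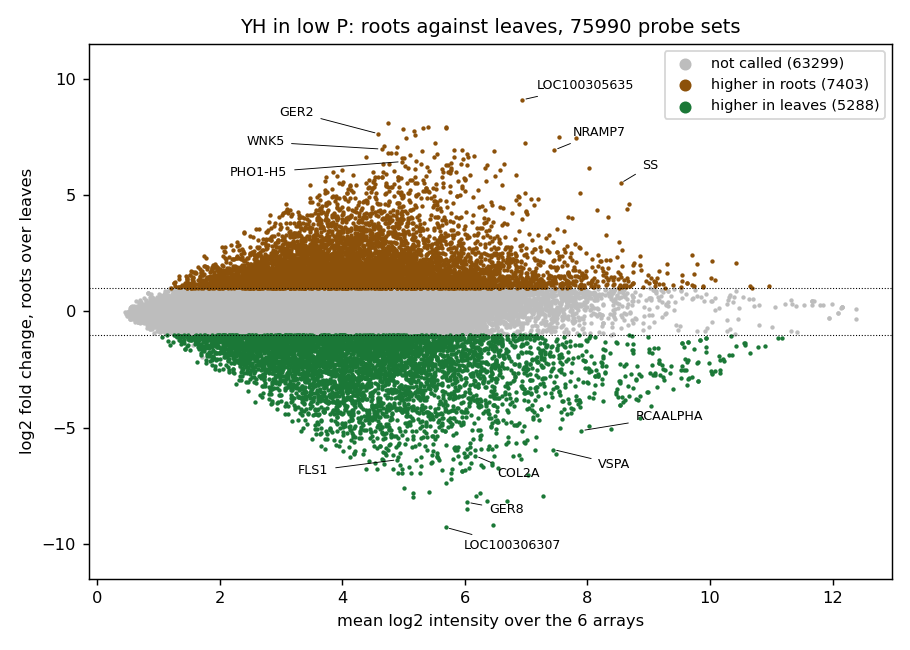
Log2 fold change of roots over leaves (y axis) against mean log2 intensity over the 6 arrays (x axis) for 75990 probe sets of YH in low P, with 7403 called higher in roots (brown) and 5288 called higher in leaves (green). Dotted lines mark the 2-fold limits, and the differences reach 9.10 in favour of roots and -9.29 in favour of leaves.

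Probe sets with a gene symbol carried most of the calls. Of the 32405 with 1 symbol, 5435 (16.8%) were higher in roots and 3447 (10.6%) in leaves, against 4.52% and 4.22% of the 43585 with none or several. Their mean log2 intensity also differed, with medians of 3.55 and 2.42. The shares were alike along the genome. Over the 20 chromosomes the share higher in roots ran from 14.8% to 19.6%, and the share higher in leaves ran from 9.43% to 12.4%. Genes on the plastid genome departed from this and are described with photosynthesis. Of 1209 symbols with several probe sets, 411 had at least 1 call and 3 had calls in opposite directions.

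The widest difference in favour of roots was at LOC100305635, whose log2 intensity was 11.52, 11.52 and 11.44 in roots and 2.45, 1.62 and 3.09 in leaves, a 550-fold difference (log2 fold change 9.10, SE 0.487, adjusted p = 3.63e-12). In the opposite direction LOC100306307 stood at 10.26, 10.39 and 10.34 in leaves and 1.4, 0.84 and 0.88 in roots, a 626-fold difference (log2 fold change -9.29, SE 0.246, adjusted p = 1.04e-16). Neither symbol comes with a described function in the annotation used. Over probe sets with 1 symbol the 10 widest differences ran from 7.46 to 9.10 in favour of roots and from -7.39 to -9.29 in favour of leaves. Germin-like proteins, small extracellular proteins of the cupin family, appeared on both sides. GER2 read 8.44, 8.25 and 8.55 in roots against 0.93, 0.70 and 0.67 in leaves (log2 fold change 7.64, SE 0.144, adjusted p = 1.18e-18). GER8 read 1.71, 2.23 and 1.87 in roots against 10.09, 10.26 and 10.08 in leaves (log2 fold change -8.21, SE 0.179, adjusted p = 8.15e-18). A further cupin gene, LOC100816355 (synonym GmCUPIN16.1), was also higher in leaves, by 281-fold. In these genes the groups lay far apart on every array. Only called probe sets whose root and leaf arrays did not overlap were ranked, so the choice itself required a separation.

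Among genes with a descriptive symbol the widest differences in favour of roots after GER2 were at WNK5, a protein kinase of the WNK family (log2 fold change 6.98, SE 0.119), NRAMP7, of the NRAMP metal transporters (6.94, SE 0.250), and CHS7, a chalcone synthase (6.66, SE 0.454). ICHG, a beta-glucosidase that releases isoflavones from their conjugates, followed at 6.63 (SE 0.226). PHO1-H5 (6.44), BHLH300 (6.34) and CHR5 (6.32), described with their families, came next, and then PRP1, a proline-rich protein of the cell wall, at 6.18 (SE 0.434). In favour of leaves the widest after GER8 were at SBPRP (-7.05, SE 0.273), FLS1, a flavonol synthase (-6.38, SE 0.311), GASA3, a gibberellin-regulated peptide (-6.22, SE 0.502), and COL2A, a CONSTANS-like factor (-6.21, SE 0.154). The adjusted p of these genes was at most 2.57e-09.

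Genes were then read by family, from 43 lists of symbols that hold 1257 probe sets in all. In 29 lists some members were higher in roots and others in leaves, in 6 the calls were only in favour of roots, in 5 only in favour of leaves, and in 3 none was called. The shares of 16.8% and 10.6% over all probe sets with 1 symbol stand beside these counts, and the median log2 fold change over those probe sets was 0.127.

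**Figure D2:**
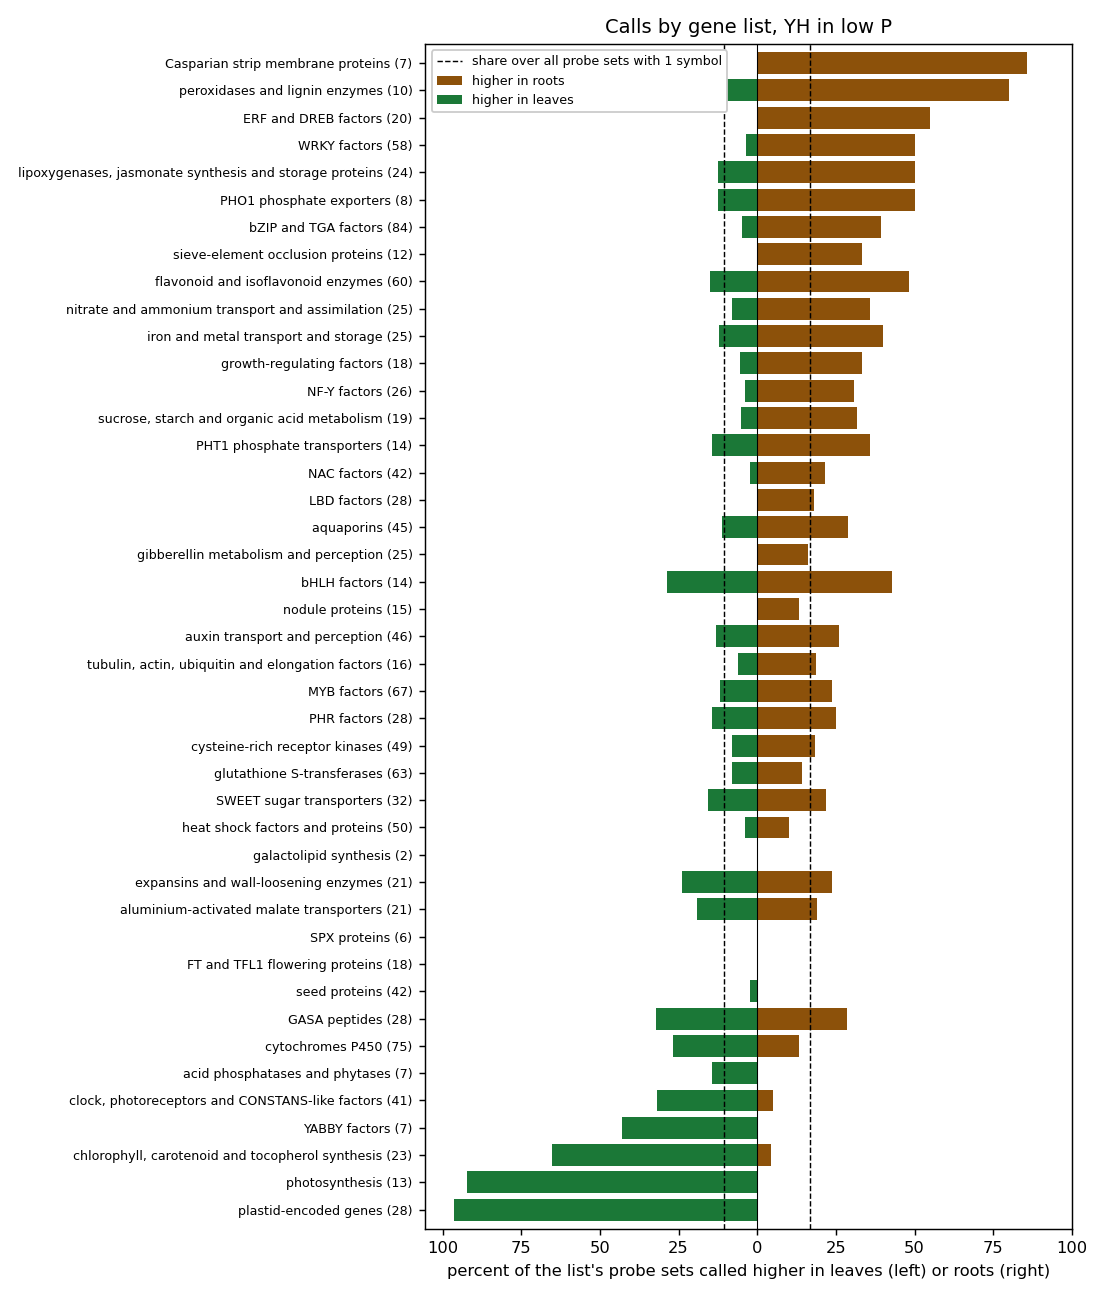
Share of each list's probe sets called higher in roots (brown, right) or higher in leaves (green, left) in YH in low P, with the number of probe sets in parentheses and dashed lines at 16.8% and 10.6%, the shares over all probe sets with 1 symbol. Casparian strip proteins (85.7% higher in roots) and plastid-encoded genes (96.4% higher in leaves) stand at the ends.

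The photosynthetic apparatus marked the leaves. Of 13 probe sets for nuclear photosynthesis genes 12 were higher in leaves and 0 in roots, with a median log2 fold change of -3.94. The chlorophyll a/b-binding protein gene LOC100793702 (synonym Cab-6) read 6.90, 6.97 and 6.67 in leaves and 0.90, 1.23 and 0.98 in roots (log2 fold change -5.81, SE 0.182, adjusted p = 1.18e-15). CAB3, of the same light-harvesting family, differed by -3.76 (SE 0.157). RCAALPHA, a Rubisco activase, read 10.47, 10.40 and 10.52 in leaves and 5.15, 5.56 and 5.28 in roots (log2 fold change -5.13, SE 0.196, adjusted p = 1.84e-14). Another activase, RCABETA, differed by -6.08 (SE 0.275). The small Rubisco subunit RBCS1 was at 5.91, 5.12 and 3.43 in leaves, a wider spread than in the genes above, and at 0.87, 0.92 and 0.85 in roots. Leaf and root arrays did not overlap in any of them. That is no separate result, because the genes were picked by a small p, a wide difference or after their values were seen. Over all probe sets the root arrays lay below the leaf arrays in 18.3%.

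Genes read from the plastid genome followed. Of 28 probe sets for 19 symbols 27 were higher in leaves (96.4%), with a median log2 fold change of -2.72. The cytochrome f gene petA (probe set 12220792) read 10.82, 10.66 and 10.68 in leaves and 7.31, 7.22 and 7.19 in roots (log2 fold change -3.48, SE 0.133, adjusted p = 1.84e-14). For psbA, which encodes the D1 protein of photosystem II, the difference was narrower, at -1.81 (SE 0.111), with 9.66, 9.80 and 9.76 in roots. The ribosomal protein gene rps3 differed by -2.02 (SE 0.177). The 2 probe sets of psbZ differed by -5.71 (11767471) and -3.69 (12220750), so the size depended on the probe set and the direction did not.

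Pigment and tocopherol synthesis showed the same direction, with 15 of 23 probe sets higher in leaves and 1 higher in roots. CHLI and CHLH, subunits of the magnesium chelatase that opens the chlorophyll branch, differed by -3.78 (SE 0.203) and -3.13 (SE 0.254), and zeaxanthin epoxidase (ZEP) by -3.41 (SE 0.193). The exception was GAMMA-TMT, the methyltransferase that makes alpha-tocopherol, which read 4.99, 4.67 and 4.72 in roots and 3.53, 3.49 and 3.55 in leaves (log2 fold change 1.27, SE 0.157, adjusted p = 1.50e-06).

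Light and clock genes were divided. Of 41 probe sets 13 were higher in leaves and 2 in roots. COL2A read 9.36, 9.20 and 9.25 in leaves and 3.20, 3.17 and 2.82 in roots, and COL2B read 9.53, 9.41 and 9.28 against 3.32, 3.49 and 3.63 (log2 fold change -5.93, SE 0.219, adjusted p = 1.18e-14). LCL4, of the LHY and CCA1 family that in Arabidopsis peaks in the morning, was higher in leaves as well (-2.93, SE 0.225, adjusted p = 1.19e-09). The pair higher in roots were TOC1 and ELF4B, relatives of evening-phased clock genes of Arabidopsis. TOC1 read 5.61, 5.29 and 5.30 in roots and 2.93, 2.68 and 2.47 in leaves (log2 fold change 2.71, SE 0.229, adjusted p = 5.21e-09), and ELF4B differed by 1.83 (SE 0.198, adjusted p = 2.08e-07). The hour of harvest is not given in the sources used here. None of the 18 probe sets for the flowering proteins of the FT and TFL1 family was called.

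Phosphate transport was split within families. PHT1 proteins carry phosphate across the plasma membrane, and of 14 members 5 were higher in roots (35.7%) and 2 in leaves (14.3%). PHT1-3 read 4.93, 4.79 and 4.59 in roots and 1.70, 2.33 and 2.45 in leaves (log2 fold change 2.61, SE 0.189, adjusted p = 4.64e-10). PHT1-1 read 6.59, 6.30 and 6.14 in roots and 3.76, 4.18 and 4.02 in leaves (log2 fold change 2.36, SE 0.197, adjusted p = 4.42e-09). PHT1-6 went the other way, at 2.61, 2.69 and 2.38 in roots and 5.95, 4.82 and 4.67 in leaves (log2 fold change -2.59, SE 0.371, adjusted p = 1.04e-05). PHT1-1 and PHT1-6 are adjacent genes, with 0 annotated genes between them in the RefSeq assembly Glycine_max_v4.0, and their tissue differences had opposite signs. PHT1-10 was the other member higher in leaves (-2.35, SE 0.261, adjusted p = 3.14e-07).

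PHO1 proteins export phosphate into the xylem, and 4 of 8 were higher in roots. PHO1-H5 had the widest difference of the phosphate genes listed, with 8.35, 8.28 and 7.94 in roots and 1.21, 1.34 and 2.70 in leaves (log2 fold change 6.44, SE 0.305, adjusted p = 5.01e-13). PHO1-H9 (3.97, SE 0.272) and PHO1-H1 (3.03, SE 0.308) were also higher in roots, whereas PHO1-H7 was higher in leaves (-2.0, SE 0.233, adjusted p = 6.53e-07). Of 28 probe sets for PHR factors, a family named after the regulator of phosphate starvation genes, 7 were higher in roots and 4 in leaves. The widest were PHR8 at 3.22 (SE 0.184) and PHR21 at -2.01 (SE 0.401). None of 6 probe sets for SPX proteins, the intracellular phosphate sensors, was called. SPX8 had -0.91 (SE 0.224, adjusted p = 0.00317), under the 2-fold limit, and passed it without root replicate 1 (-1.12), leaf replicate 2 (-1.01) or leaf replicate 3 (-1.06). Among 7 acid phosphatases and phytases only PAP was called, at 2.91, 3.01 and 3.26 in roots and 7.56, 6.87 and 7.14 in leaves (log2 fold change -4.13, SE 0.301, adjusted p = 5.12e-10). The galactolipid synthases MGD1 and DGD2 gave 0 calls.

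**Figure D3:**
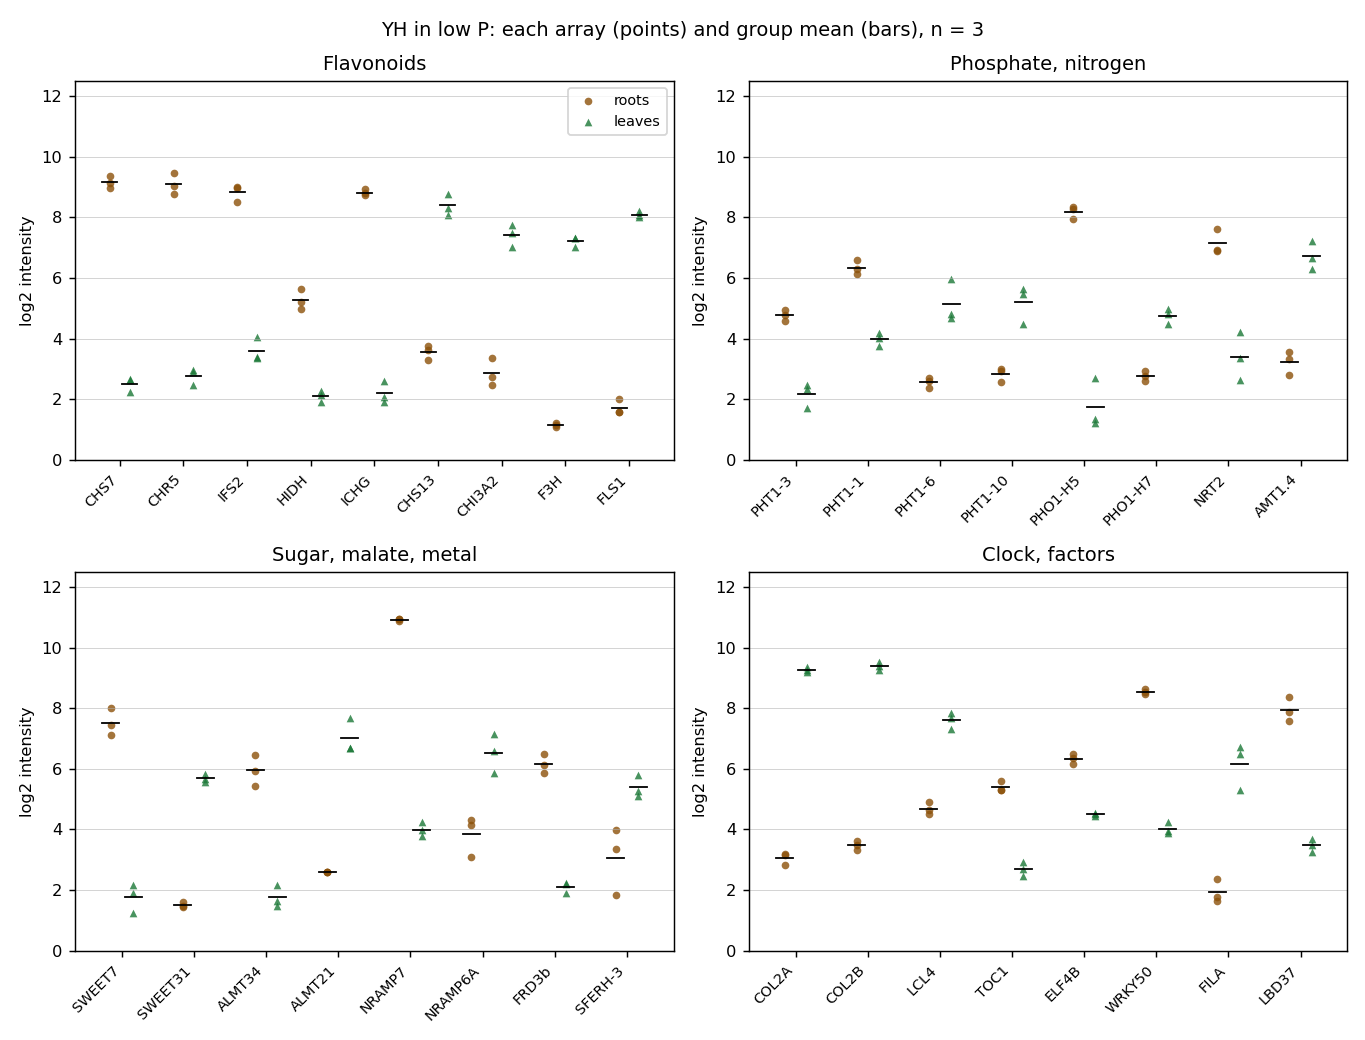
Log2 intensity (y axis) of 33 genes on each root array (brown circles) and leaf array (green triangles) of YH in low P, with a bar at each mean of 3. Root and leaf arrays do not overlap in any of them, which is no separate result because the genes were picked from called ones. Over all probe sets root arrays lie above leaf arrays in 21.5% and below in 18.3%. Families such as PHT1, PHO1, SWEET and ALMT hold members with opposite directions.

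Nitrogen genes leaned towards roots, with 9 of 25 probe sets higher there and 2 higher in leaves. The cytosolic glutamine synthetases LOC548082 (synonym GS1beta1) and LOC547953 (synonym GS1beta2) differed by 4.01 (SE 0.213) and 3.67 (SE 0.276). NRT2, a high-affinity nitrate transporter, read 7.62, 6.92 and 6.90 in roots and 2.63, 3.36 and 4.22 in leaves (log2 fold change 3.74, SE 0.354, adjusted p = 3.03e-08). The ammonium transporter AMT1.4 was higher in leaves, at 7.22, 6.65 and 6.30 against 3.31, 2.81 and 3.55 in roots (log2 fold change -3.50, SE 0.437, adjusted p = 1.65e-06), while AMT2.3 was higher in roots (1.83, SE 0.159).

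Channels and carriers of water, malate and sugar were mixed. Of 45 aquaporin probe sets 13 were higher in roots and 5 in leaves. The tonoplast aquaporin TIP4-1 differed by 4.0 (SE 0.302), and LOC100817754, whose synonyms include TIP2-6, by -4.90 (SE 0.305). Aluminium-activated malate transporters gave 4 calls in each direction among 21. ALMT34 read 6.46, 5.45 and 5.94 in roots and 1.65, 1.47 and 2.17 in leaves (log2 fold change 4.19, SE 0.353, adjusted p = 5.16e-09). ALMT21 read 2.60, 2.59 and 2.60 in roots and 7.69, 6.69 and 6.69 in leaves (log2 fold change -4.43, SE 0.256, adjusted p = 1.25e-11). SWEET proteins let sugars pass membranes, and 7 of 32 were higher in roots and 5 in leaves. SWEET7 had the widest difference in favour of roots (5.76, SE 0.261) and SWEET31 in favour of leaves (-4.18, SE 0.463).

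Carbon metabolism beyond photosynthesis gave 6 calls for roots and 1 for leaves among 19 probe sets. Sucrose synthase (SS), which cleaves imported sucrose, read 11.29, 11.39 and 11.20 in roots and 5.83, 6.07 and 5.44 in leaves (log2 fold change 5.51, SE 0.369, adjusted p = 1.32e-10). The cell wall invertase CWINV (4.23, SE 0.190) and the phosphoenolpyruvate carboxylase PEPC7 (4.13, SE 0.345) were higher in roots too. The beta-amylase BMY2, an enzyme of starch breakdown, was higher in leaves (-4.17, SE 0.301).

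Iron and metal genes had 10 of 25 probe sets higher in roots (40%) and 3 in leaves. NRAMP7 read 10.89, 10.94 and 10.96 in roots and 3.77, 3.98 and 4.23 in leaves (adjusted p = 8.30e-15). FRD3b, whose Arabidopsis relative loads citrate for iron transport in the xylem, differed by 4.05 (SE 0.217), and the iron transporter IRT by 2.47 (SE 0.279). BHLH300 and BHLH57, which are known as regulators of iron uptake in soybean, differed by 6.34 (SE 0.234) and 6.14 (SE 0.280). BHLH320, with 0 annotated genes between it and BHLH300, gave 5.44 and 4.37 on its 2 probe sets. The 3 members higher in leaves were NRAMP6A (-2.69, SE 0.376), the ferritin SFERH-3 (-2.34, SE 0.403) and HMA8, a metal-pumping ATPase (-1.10, SE 0.228). The difference of HMA8 fell below 2-fold without root replicate 2 (-0.88) or leaf replicate 1 (-0.85).

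Flavonoid enzymes were called more often in favour of roots. Of 60 probe sets 29 were higher in roots (48.3%) and 9 in leaves (15%), with a median log2 fold change of 0.77. Chalcone synthase opens the pathway, and chalcone reductase, isoflavone synthase and hydroxyisoflavanone dehydratase lead to isoflavones. Single enzymes are described below, some of them chosen after their values were seen, and calls were not counted per branch. CHS7 read 9.37, 8.98 and 9.13 in roots and 2.22, 2.63 and 2.67 in leaves. The chalcone reductase CHR5 read 9.45, 9.04 and 8.78 against 2.97, 2.88 and 2.48 (log2 fold change 6.32, SE 0.361, adjusted p = 1.03e-11), and the isoflavone synthase IFS2 read 8.99, 8.52 and 8.97 against 4.04, 3.39 and 3.36 (log2 fold change 5.23, SE 0.408, adjusted p = 1.48e-09). HIDH, the dehydratase, differed by 3.17 (SE 0.216), and the isoflavone reductase gene LOC547659 (synonym IFR1) by 5.52 (SE 0.262). Each of these named genes was higher in roots.

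Flavanone 3-hydroxylase and flavonol synthase lead to flavonols instead. F3H read 7.33, 7.33 and 7.03 in leaves and 1.20, 1.09 and 1.14 in roots (log2 fold change -6.09, SE 0.429, adjusted p = 3.03e-10). FLS1 read 8.21, 8.00 and 8.07 in leaves and 1.99, 1.58 and 1.57 in roots (adjusted p = 8.25e-13). Genes F3H and FLS1 were thus higher in leaves, and copies of the first enzymes were called in both directions. The chalcone synthase CHS13 was higher in leaves (-4.84, SE 0.310) and CHS7 in roots, and the chalcone isomerase CHI3A2 was higher in leaves (-4.58, SE 0.379) and CHI1B1 in roots (3.91, SE 0.285). Copies of a family can be close in sequence, and how far their probes tell them apart was not tested.

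Of the cell wall lists, those for the Casparian strip and for peroxidases and lignin leaned to roots. Casparian strip membrane proteins, which build the barrier of the endodermis, had 6 of 7 probe sets higher in roots (85.7%) and 0 in leaves. LOC100775221 (synonym GmCASP4) read 7.27, 6.48 and 5.81 in roots and 3.95, 2.92 and 3.73 in leaves (log2 fold change 2.99, SE 0.292, adjusted p = 4.80e-08). Peroxidases and lignin enzymes gave 8 of 10 probe sets higher in roots, with POD at 5.33 (SE 0.300) and PRX4 at 4.91 (SE 0.239). CAD1, a cinnamyl alcohol dehydrogenase, was higher in leaves (-1.21, SE 0.258). Expansins and wall-loosening enzymes had 5 calls in each direction among 21, from PG7, a polygalacturonase (3.70, SE 0.399), to the expansin gene LOC100499976 (-2.03, SE 0.323).

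Storage and jasmonate genes were again divided. The vegetative storage protein VSPA read 10.40, 10.42 and 10.42 in leaves and 4.98, 4.60 and 3.84 in roots (log2 fold change -5.94, SE 0.368, adjusted p = 3.86e-11). The vegetative lipoxygenase VLXC differed by -5.69 (SE 0.330), and LOC547820 (synonym VSPB) by -2.74 (SE 0.635). These were the 3 members higher in leaves of 24 probe sets. The 12 higher in roots included LOX10 (2.51, SE 0.270), the Kunitz inhibitor KTI-2 (probe set 11959668, 2.79, SE 0.425) and LOC100800036 (synonym AOC2), an allene oxide cyclase of jasmonate synthesis (3.33, SE 0.317).

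Transcription factor families differed in their shares of calls. WRKY factors, best known from stress and defence, had 29 of 58 probe sets higher in roots (50%) and 2 in leaves, with a median log2 fold change of 0.98. WRKY50 read 8.63, 8.46 and 8.54 in roots and 4.24, 3.87 and 3.96 in leaves (log2 fold change 4.52, SE 0.190, adjusted p = 7.69e-14). WRKY46 was one of the 3 symbols with opposite calls, at -1.27 (SE 0.195) on probe set 11924051 and 1.24 (SE 0.430) on 11939513, and the second lost its call when any of 4 arrays was left out (adjusted p between 0.0613 and 0.157). Factors of the bZIP and TGA class had 33 of 84 higher in roots and 4 in leaves, led by BZIP90 (6.15, SE 0.211). Of ERF and DREB factors 11 of 20 were higher in roots and 0 in leaves, with ERF5 at 4.43 (SE 0.291). NF-Y factors gave 8 and 1 of 26, with NF-YA1B at 3.14 (SE 0.219).

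NAC, MYB and LBD factors were nearer to the overall share of 16.8% in favour of roots. NAC factors had 9 of 42 probe sets higher in roots (21.4%), led by NAC34 (5.10, SE 0.337), and 1 higher in leaves. That one, NAC4, read 8.27, 6.59 and 7.84 in leaves and 5.98, 6.63 and 6.60 in roots (log2 fold change -1.16, SE 0.417, adjusted p = 0.0397). Its groups overlapped, and its call ended when any array but leaf replicate 2 was left out (adjusted p between 0.0549 and 0.184) and with the replicate number as a block (0.0554). MYB factors gave 16 (23.9%) and 8 (11.9%) of 67, with MYB51 at 4.10 (SE 0.329) and MYB127 at -3.13 (SE 0.231). LBD factors, which act at organ boundaries and in lateral root formation, gave 5 (17.9%) and 0 of 28. LBD37 read 8.36, 7.89 and 7.59 in roots and 3.26, 3.49 and 3.67 in leaves (log2 fold change 4.48, SE 0.289, adjusted p = 7.30e-11).

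YABBY factors, which in Arabidopsis specify the lower side of leaves, were the factor family with calls in favour of leaves only, 3 of 7. FILA read 6.49, 6.72 and 5.31 in leaves and 1.63, 2.38 and 1.76 in roots (log2 fold change -4.25, SE 0.434, adjusted p = 9.28e-08), and LOC100500091 (synonym GmYABBY11) differed by -2.08 (SE 0.299). The third, LOC100781267 (synonym GmYABBY3), had -1.28 (adjusted p = 0.0291) and lost its call without any one of the root arrays or without leaf replicate 1 (adjusted p between 0.0542 and 0.170).

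Basic helix-loop-helix factors gave 6 calls for roots and 4 for leaves among 14, with a median log2 fold change of -0.33. Besides the iron regulators, BHLH56 differed by 5.76 (SE 0.230), while ICE1 and ICE4, relatives of a cold-response factor of Arabidopsis, differed by -2.05 (SE 0.300) and -2.59 (SE 0.278). Growth-regulating factors gave 6 and 1 of 18, with GRF13 at 2.19 (SE 0.354) and GRF5 at -1.08 (SE 0.291). GRF5 lost its call without leaf replicate 2 (-0.81, adjusted p = 0.0545) and with log2 of the value plus 1 (-0.99). Sieve-element occlusion proteins, which plug phloem sieve elements, gave 4 and 0 of 12. SEO-F1 read 6.15, 5.95 and 5.43 in roots and 4.36, 3.87 and 4.07 in leaves (log2 fold change 1.75, SE 0.276, adjusted p = 3.45e-05), and its neighbour SEO-F2 differed by 1.57 (SE 0.309).

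Hormone genes were divided between the organs. Auxin carriers and receptors gave 12 calls for roots and 6 for leaves among 46. The efflux carrier PIN2B, whose Arabidopsis relative acts in the root tip, differed by 2.50 (SE 0.251), while PIN3A and PIN3B differed by -2.32 (SE 0.242) and -2.71 (SE 0.223). Gibberellin metabolism gave 4 calls for roots and 0 for leaves among 25, including both the synthetic GA3OX3 (3.85, SE 0.601) and the inactivating GA2OX1 (3.78, SE 0.156). GASA peptides were divided almost evenly, with 8 and 9 of 28. GASA32 read 6.15, 6.19 and 5.67 in roots and 2.63, 2.30 and 1.35 in leaves (log2 fold change 3.91, SE 0.360, adjusted p = 1.93e-08). GASA3 read 3.38, 2.53 and 2.89 in roots and 9.15, 9.46 and 8.85 in leaves.

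Cytochromes P450 were called more often in favour of leaves, with 10 of 75 probe sets higher in roots (13.3%) and 20 in leaves (26.7%). Over all probe sets with 1 symbol 10.6% were higher in leaves. Among members with the smallest p the differences ran from CYP81E11 (4.72, SE 0.189) to CYP28 (-4.73, SE 0.210). The median log2 fold change of the list was 0.20, beside 0.127 over all probe sets with 1 symbol. In normal P 17 of the list were higher in roots and 18 in leaves. Glutathione S-transferases stood nearer to the overall shares, with 9 and 5 of 63 (14.3% and 7.94%), among them GSTU42 at 3.40 (SE 0.280) and LOC547576 (synonym GSTU3) at -5.14 (SE 0.265). Cysteine-rich receptor kinases had 9 and 4 of 49, led by CRK70 (5.98, SE 0.315). Heat shock factors and proteins had 5 and 2 of 50, and HSP90A1 was higher in leaves, at 5.65, 5.97 and 4.42 against 1.82, 2.16 and 2.16 in roots (log2 fold change -3.30, SE 0.328, adjusted p = 6.20e-08).

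Few markers of nodules and seeds were called. The leghemoglobins LB1, LB2, LB3 and LB4, which fill nitrogen-fixing nodules, lay between 0.52 and 1.74 on all 6 arrays and did not differ by the test (adjusted p between 0.612 and 0.918). Of 15 nodule protein probe sets 2 were higher in roots, ENOD40B, with 6.29, 6.30 and 6.16 in roots (log2 fold change 2.97, SE 0.202), and N-36A (1.99, SE 0.216). Of 42 seed protein probe sets 1 was called, PM23, with 7.45, 7.02 and 7.09 in leaves and 4.78, 4.91 and 5.03 in roots (log2 fold change -2.28, SE 0.155). Among tubulins, actins, ubiquitins and elongation factors 3 of 16 were higher in roots and 1 in leaves, with a median log2 fold change of 0.45. Photosynthesis genes in leaves and Casparian strip genes in roots were thus on the side their labels name. Other lists taken as root markers were less uniform. PHT1 transporters had 5 of 14 higher in roots and 2 in leaves, and aquaporins had 13 and 5 of 45. Peroxidases and lignin enzymes had 8 and 1 of 10.

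The same contrast in normal P gave 7819 probe sets higher in roots (10.3%) and 5019 higher in leaves (6.6%). Of the 7403 higher in roots in low P, 6235 were also called there, which is 84.2% of the low P list and 79.7% of the normal P list. Of the 5288 higher in leaves, 4298 were also called, 81.3% and 85.6% of the lists. No probe set was called in opposite directions. Over all 75990 probe sets the tissue differences at the 2 P levels had a Pearson's r of 0.951 and a Spearman's rho of 0.853, a description across probe sets that were normalized together and are not independent replicates.

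The test of the difference between P levels called 6 probe sets (0.0079%), while 3109 had an unadjusted p under 0.05. In all 6 the leaf level differed between P levels by the test (0.107% of all probe sets did), and in none did the root level (0.00132% did). That is no separate result, because the tested difference is the root change between P levels minus the leaf change, on the same arrays. BHLH300 read 7.74, 7.81 and 7.95 in low P roots and 1.76, 1.45 and 1.27 in low P leaves, but 5.84, 6.84 and 5.92 in normal P leaves. Its tissue difference was 6.34 in low P and 1.82 in normal P, and these differed by 4.52 (SE 0.330, adjusted p = 8.40e-07). BHLH320 (probe set 11815596) read 0.92, 1.83 and 1.46 in low P leaves and 5.63, 5.41 and 3.75 in normal P leaves, with a difference of 3.38 between P levels (SE 0.520, adjusted p = 0.0294). The other probe set of BHLH320, 11815599, was not called by this test (2.33, SE 0.453, adjusted p = 0.231). Probe set 12182632, with no symbol, read 6.30, 6.38 and 6.47 in low P roots and 1.76, 1.58 and 1.20 in low P leaves, with tissue differences of 4.87 in low P and 0.72 in normal P. In these 3 called probe sets the roots exceeded the leaves by more in low P.

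For the other 3 the leaf level was the higher one. Probe sets 11950930 and 12157982, also without a symbol, were nearer between tissues in low P, with -1.09 and -1.75 in low P against -5.01 and -5.47 in normal P. The leaf level of 11950930 was 2.87, 2.0 and 1.62 in low P and 7.36, 6.03 and 5.81 in normal P. LOC100500575 read 8.09, 7.67 and 7.57 in low P leaves and 6.25, 4.98 and 5.53 in normal P leaves, so that its tissue difference was -3.66 in low P and -1.27 in normal P. In a separate fit of the 12 YH arrays BHLH300 alone kept its call, and with array weights 1371 probe sets were called, a shift whose cause was not tested. Leaving out 1 of the 12 YH arrays at a time gave between 3 calls (without low P root replicate 2 or normal P root replicate 1) and 34 (without normal P leaf replicate 1), with 16 without normal P leaf replicate 3. BHLH320 lost its call in 8 of these 12 fits (adjusted p between 0.0639 and 0.127), and with the replicate number as a block its adjusted p was 0.346. Probe set 11950930 lost its call in 4 of them (adjusted p between 0.0624 and 0.0784) and LOC100500575 in 2 (0.0784 and 0.0728). In low P alone the tissue difference of 11950930 lost its call without any one root array or without leaf replicate 1 or 2 (adjusted p between 0.0508 and 0.204).

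**Figure D4:**
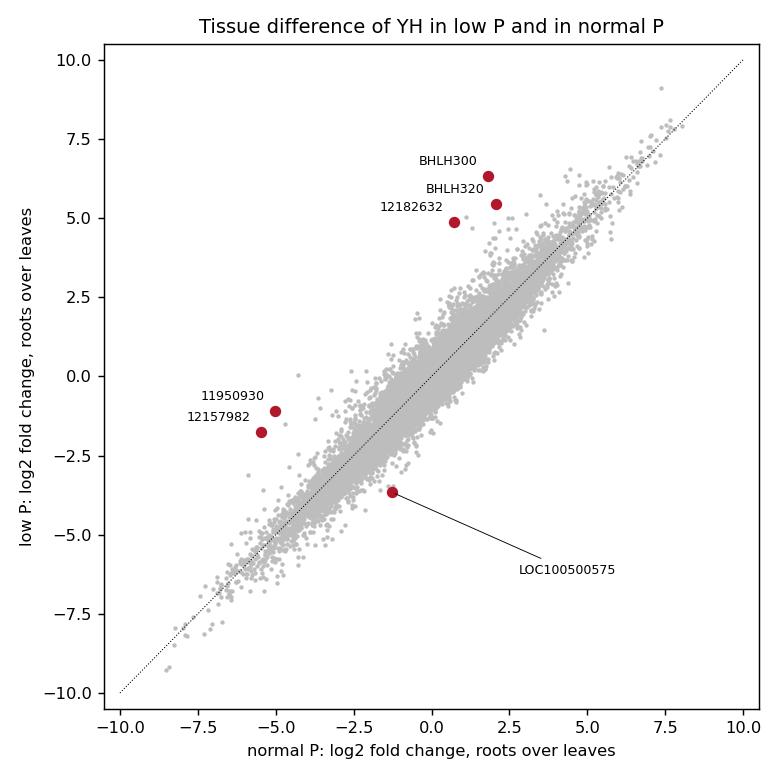
Log2 fold change of YH roots over leaves in low P (y axis) against that in normal P (x axis), 1 grey point per probe set (75990), with a dotted line of equality. Red points are the 6 probe sets whose tissue difference differed between P levels, such as BHLH300 at 6.34 in low P and 1.82 in normal P.

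Of the probe sets called in low P, 40 were over 4-fold higher in roots there and under 2-fold apart in normal P. Another 19 were so in favour of leaves. The call in low P and the sizes chose these probe sets, and 1 of these 59, probe set 12182632, also passed the test of the difference. Among them were AOX3, an alternative oxidase, with a tissue difference of 2.62 in low P and 0.87 in normal P, and LOC547820 (synonym VSPB), with -2.74 and -0.77. These counts moved from 12 to 68 and from 6 to 61 when 1 array was left out, and both were lowest without normal P leaf replicate 2.

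In CD in low P, 6366 probe sets were higher in roots (8.38%) and 5598 higher in leaves (7.37%). Of the YH list, 4415 higher in roots were also called in CD (59.6% of the YH list, 69.4% of the CD list), as were 3845 higher in leaves (72.7% and 68.7%). Another 84 probe sets were called in opposite directions, 60 of them higher in roots in YH. The test of the difference between accessions called 4518 probe sets (5.95%), 2679 (3.53%) with the more positive tissue difference in YH and 1839 (2.42%) with the more negative one. Of the 2679, 1844 were also called between YH and CD leaves (6.92% of all probe sets were) and 369 between YH and CD roots (3.39% were). Of the 1839, 770 were called between leaves and 808 between roots. These overlaps are no separate result, because the test subtracts the leaf difference between accessions from the root difference, on the same arrays.

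Of 41 probe sets for clock and light genes 5 had a more positive and 5 a more negative tissue difference in YH, against 3.53% and 2.42% of all probe sets. The hour of harvest is given for neither accession in the sources used here, so accession and hour cannot be told apart. COL2A read 9.36, 9.20 and 9.25 in YH leaves and 5.45, 5.61 and 5.65 in CD leaves, so that its tissue difference of -6.21 in YH was -3.15 in CD (difference -3.06, SE 0.217, adjusted p = 1.76e-08). COL2B read 5.24, 5.12 and 5.0 in CD leaves, and its tissue difference of -5.93 in YH was -1.89 in CD (difference -4.04, SE 0.310). LCL3, of the same family as LCL4, differed between tissues by -2.56 in YH and 0.24 in CD. Within each tissue LCL3 was higher in YH than in CD, by 5.71 in leaves and 2.91 in roots. ELF4B had opposite directions, with 4.54, 4.52 and 4.44 in YH leaves and 8.43, 8.04 and 7.58 in CD leaves, and tissue differences of 1.83 and -1.04 (difference 2.88, SE 0.280, adjusted p = 1.10e-06). The Rubisco activase RCA03 read 6.40, 6.13 and 6.31 in YH leaves and 2.44, 2.80 and 2.64 in CD leaves, while RCAALPHA, with -5.13 in YH and -6.97 in CD, differed more between the tissues of CD.

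Some transporters differed too. Of 32 SWEET probe sets 2 had a more positive and 5 a more negative tissue difference in YH, of 21 ALMT 1 and 3, of 14 PHT1 0 and 2, and of 45 aquaporins 2 and 0, so most members did not pass the test. Over all probe sets 3.53% and 2.42% passed, and the shares among probe sets with 1 symbol were not computed. SWEET29 was higher in leaves in YH (-1.83) and higher in roots in CD (2.12), with 7.50, 6.29 and 6.84 in YH leaves and 3.98, 3.75 and 3.58 in CD leaves (difference -3.95, SE 0.326, adjusted p = 1.32e-07). SWEET34 gave -2.75 in YH and 0.37 in CD. SWEET7 was at 8.00, 7.12 and 7.46 in YH roots and 3.98, 4.04 and 3.95 in CD roots, with a tissue difference of 5.76 in YH and 2.49 in CD. IRT read 5.28, 5.48 and 5.22 in YH roots and 3.11, 2.81 and 2.66 in YH leaves, against 1.93, 2.72 and 2.58 in CD roots and 4.34, 3.77 and 4.25 in CD leaves (difference 4.19, SE 0.394, adjusted p = 7.24e-07). Its direction was thus reversed between the accessions. AMT1.4 gave -3.50 in YH and -0.23 in CD, NRAMP6A gave -2.69 and 0.25, and PHO1-H9 gave 3.97 and 1.24.

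Other genes were high in 1 organ of YH and low in both organs of CD. LBD37 and LBD30, at 8.36, 7.89 and 7.59 and at 7.60, 7.06 and 6.89 in YH roots, read 3.12, 3.37 and 3.38 and 1.93, 2.41 and 2.28 in CD roots. Their tissue differences were 4.48 and 4.33 in YH and 0.01 and -0.20 in CD. LOC100791196 read 7.10, 6.50 and 6.54 in YH roots and between 0.98 and 1.4 in YH leaves and in the roots and leaves of CD (difference 5.52, SE 0.240, adjusted p = 4.31e-11). LOC100797103 read 8.26, 7.85 and 8.02 in YH leaves, with a tissue difference of -4.59 in YH and 0.05 in CD. HSP90A1 was high in YH leaves as well (-3.30 in YH, 0.16 in CD). CYP28, higher in leaves in both accessions, differed by -4.73 in YH and -1.41 in CD, with 4.60, 4.25 and 4.38 in CD leaves. LOC100305359 was low in both organs of YH (0.70 to 1.13) and at 6.87, 6.51 and 6.40 in CD roots. GASA32 was low in YH leaves only, with 7.90, 7.34 and 7.20 in CD leaves and tissue differences of 3.91 and -1.06.

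**Figure D5:**
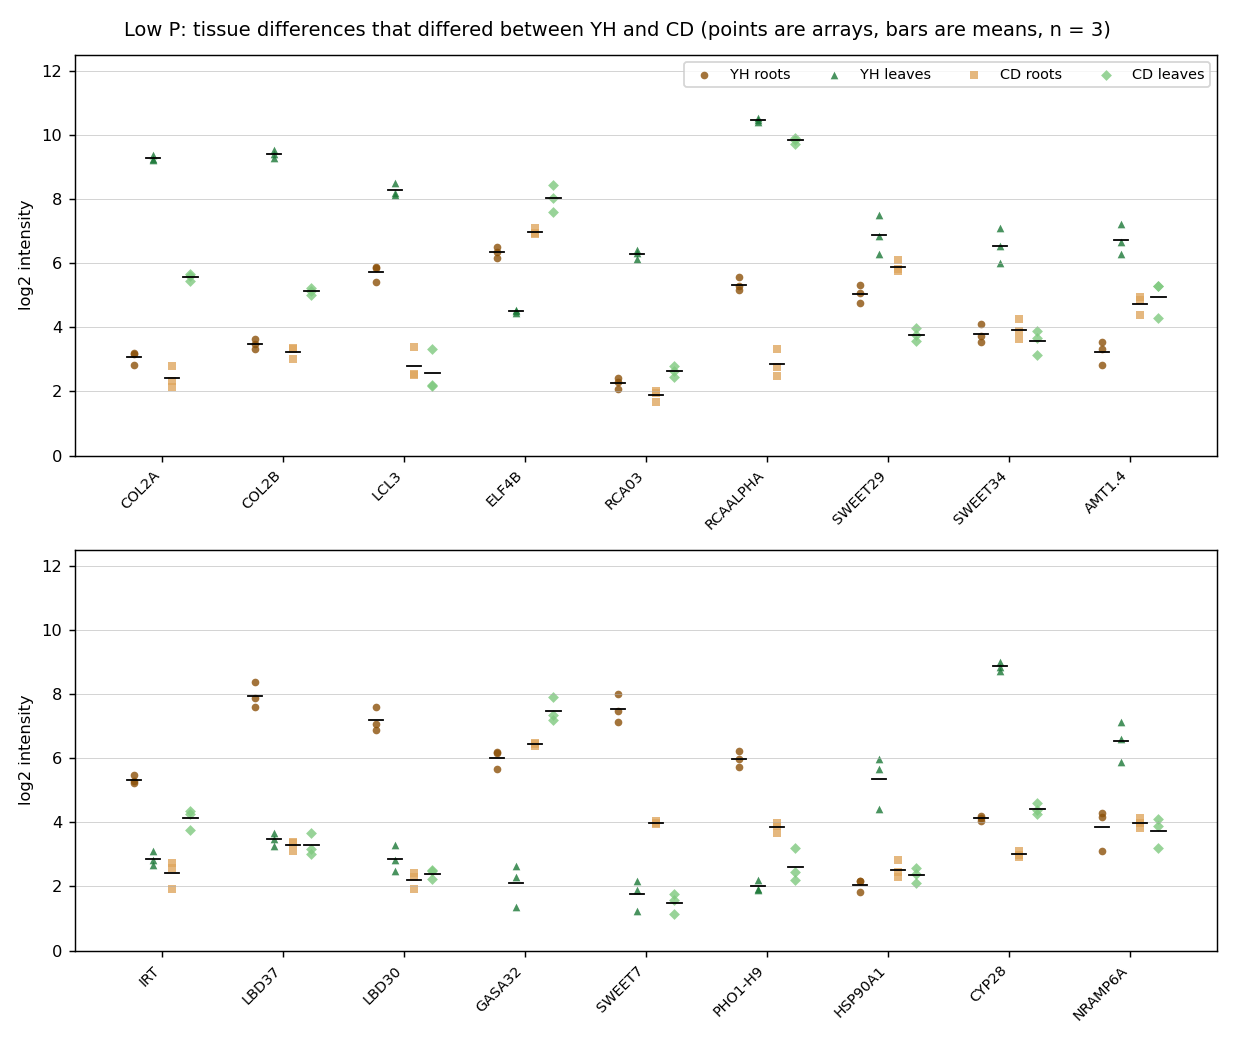
Log2 intensity (y axis) in low P of 18 genes whose tissue difference differed between the accessions, on each array of YH roots (brown circles), YH leaves (green triangles), CD roots (tan squares) and CD leaves (light green diamonds), with a bar at each mean of 3. IRT, ELF4B, SWEET29 and GASA32 were ordered oppositely in YH and CD, and LBD37 and LBD30 were high in YH roots alone.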

How the data were processed

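RNA of roots and leaves was hybridised to the 24 arrays. The deposited values are linear intensities per probe set that the authors had normalized, by RMA according to the paper and by MAS5 according to the submitters' processing notes, and 0 values were missing. For RNA extraction the paper names a kit and the labels name Trizol. Without filtering, intensities were converted to log2. A linear model (limma 3.58.1, R 4.3.3) covered all 24 arrays with 1 mean for each of the 8 groups (residual degrees of freedom 16, prior 4.22). Benjamini-Hochberg adjustment ran over all 75990 probe sets, and the scripts were tested on simulated data. A call needed an adjusted p under 0.05 and a fold of at least 2. The differences between P levels and between accessions were tested as interaction terms. An exact two-sided permutation test of 3 against 3 arrays cannot go below 0.1, so single values rest on the spread pooled by limma, and the number of arrays limits the precision.

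Symbols came from the platform annotation (32405 probe sets with 1 symbol, 1586 with several, 41999 with none), of which 32402 matched RefSeq (Glycine_max_v4.0). Probe sets of a gene were kept apart. Named genes were the 10 widest differences in each direction with 1 symbol and with a descriptive symbol. These were ranked among called probe sets whose root and leaf arrays did not overlap. Up to 4 members of each list with the smallest p and up to 3 called against its majority were added. All calls of the P level test were named as well. From the accession test came up to 10 per direction with the smallest p, and 5 per direction from those called in low P and marked by size. NRT2, IRT, HIDH, IFS2, CHI1B1, CHI3A2, LCL3, RCA03, RBCS1, TIP4-1, KTI-2, psbA, rps3, the LB genes and a further probe set each of psbZ, BHLH320 and WRKY46 were chosen after their values were seen. Members and lists were chosen with earlier results of these data known. Promoter and protein sequences were not analysed here. The alternatives were quantile normalization, median centring, removal of the dimmest probe sets (50660 kept), a separate fit, blocking by replicate number, dropping the fold threshold, a stricter adjusted p of 0.01, log2 of the value plus 1, array weights, SAM (20 label permutations, q of 5%), a different rule for probe sets apart only in low P, and omission of single arrays.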

Additional observations from a re-analysis of the deposited data

Results flagged for a closer look

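All results here were picked out because a difference between roots and leaves of YH in low P itself differed, by limma's test of the interaction, from that in another condition. Against YH in normal P this held for 6 probe sets. BHLH300 differed by 4.52, probe set 12182632 by 4.15, probe set 11950930 by 3.93, probe set 12157982 by 3.72, BHLH320 (probe set 11815596) by 3.38 and LOC100500575 by -2.40. Each value is the log2 root over leaf difference in low P minus that in normal P. The other probe set of BHLH320, 11815599, was not called (2.33, adjusted p = 0.231).

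Against CD in low P it held for 2679 probe sets with the more positive difference in YH and for 1839 with the more negative one. The following values are YH minus CD on the log2 scale. Light and plastid genes included COL2B at -4.04, RCA03 at -3.27, COL2A at -3.06, LCL3 at -2.80, RCABETA at -2.25, LCL4 at -1.43 and psbZ at -1.02, and with the opposite sign ELF4B at 2.88, RCAALPHA at 1.84, TOC1 at 1.63 and CHLH at 1.27. Among transporters of sugar, malate and nitrogen SWEET29 had -3.95, AMT1.4 had -3.27, SWEET34 had -3.12, ALMT21 had -2.11 and SWEET7 had 3.27, and the glutamine synthetase LOC548082 had 1.93. For phosphate, PHO1-H9 had 2.73, PHO1-H1 had -1.84, SPX8 had -1.61 and PHT1-3 had -1.12. For iron and metals, IRT had 4.19, NRAMP7 had 1.52, FRD3b had 1.39 and NRAMP6A had -2.93.

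Transcription factors and peptides included GASA32 at 4.97, LBD30 at 4.53, LBD37 at 4.47, GRF5 at 2.62, NAC4 at -2.64 and NF-YA1B at -1.31. Enzymes and other proteins included CYP28 at -3.32, HSP90A1 at -3.47, BMY2 at -2.61, the expansin LOC100499976 at -2.27, the glutathione S-transferase LOC547576 at -1.53, PM23 at -1.32, CYP81E11 at -1.08, CAD1 at 1.46 and ENOD40B at 1.61. Genes with no descriptive symbol included LOC100791196 at 5.52, LOC100305359 at -5.54 and LOC100797103 at -4.64. These genes were chosen by a small p in the accession test and were not ranked by size. LOC100500575 (1.67) and probe set 12157982 (-1.59) differed with the accession as well as with the P level.

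Some of these calls by accession depended on 1 array or setting. CHLH lost its call in 8 of the 12 fits with 1 low P array left out (adjusted p between 0.051 and 0.103), and CAD1 without CD leaf replicate 1 (adjusted p = 0.0518). The difference of psbZ fell under 2-fold with quantile normalization (-0.98), with array weights (-0.96) and without YH root replicate 3 (-0.96), YH leaf replicate 1 (-0.96) or CD leaf replicate 1 (-0.98). PHT1-3 lost its call in a separate fit (adjusted p = 0.054) and without YH leaf replicate 3 (-0.97) or CD leaf replicate 2 (-0.90). CYP81E11 did so without YH leaf replicate 1 (-0.82) or CD leaf replicate 3 (-0.98), and NF-YA1B with array weights (-0.97).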

How the results depend on the processing

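No called difference of a named gene turned its sign under any alternative run. Over the alternatives, 116 of 139 values of the main counts, 1230 of 1290 counts of calls within lists and 3108 of 3197 values of named genes stayed within 1.5 times the count or on the same side of the threshold, while 84 values of 20 results on named genes lost their call and 5 values of 2 results gained one. Without the fold threshold 13547 probe sets were higher in roots and 9626 in leaves, and in all other settings the counts lay between 6568 and 8156 and between 4834 and 5778, with SAM giving 7462 and 5326. Leaving out an array gave 6568 to 8156 and 5079 to 5778. The count of tissue differences that depended on the P level was 3 at an adjusted p under 0.01, 1 in a separate fit, 1371 with array weights, which ran from 0.295 to 8.43 over the YH low P arrays, and 3 to 34 with an array left out. The counts by accession were 1583 and 1163 at an adjusted p under 0.01 and 2941 (more negative in YH) with array weights, and 1977 to 2847 and 1494 to 2013 with an array left out. The probe sets over 4-fold apart only in low P numbered 63 and 41 with array weights, 33 for leaves when no call in normal P was the rule, and 12 to 68 and 6 to 61 with an array left out. The count for roots was 68 without low P leaf replicate 1, 66 without normal P leaf replicate 1 and 12 without normal P leaf replicate 2. For leaves it was 12 without low P leaf replicate 1, 50 without low P leaf replicate 3, and 61, 6 and 45 without normal P leaf replicates 1, 2 and 3. The cause of these shifts was not tested.

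The numbers did not meet the rule for pairs (every correlation over 0.1) in the comparison of YH roots and leaves in low P, and the labels give no shared origin. There the deviations of same-numbered arrays from their group means correlated by 0.44, 0.032 and 0.426, and root replicate 2 correlated best with leaf replicate 3 (0.19). Same-numbered roots and leaves correlated by 0.396, 0.291 and 0.132 in YH in normal P and by 0.421, 0.132 and 0.324 in CD in low P. By this rule the groups of the interaction tests were thus paired in part. Between P levels same-numbered arrays gave 0.552, 0.176 and 0.239 in YH roots and 0.492, -0.139 and 0.058 in YH leaves. Between YH and CD in low P they gave 0.419, 0.0883 and 0.335 in roots and 0.448, -0.0906 and 0.329 in leaves. Groups of different P level or accession share no plants, so such correlations do not show that roots and leaves came from the same plants. With the replicate number as a block 7439 probe sets were higher in roots and 5324 in leaves, 6 depended on the P level (a count in which BHLH320 is lost, adjusted p = 0.346), 3341 and 2229 on the accession, and 40 and 19 were apart only in low P. Arrays limit the precision by their number, and dim probe sets give only an uncertain fold.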
